A study of Mus musculus with 9 samples.

Results

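Undifferentiated spermatogonia (SG), the SG population that includes the germline stem cells of the testis, were examined in single cell RNA-seq of whole mouse testis. The cells were chosen by 6 genes that mark the early SG state: Gfra1, Zbtb16, Trim71, Egr4, Etv5 and Glis3. A cell was kept if it held a unique molecular identifier (UMI), the tag that counts 1 captured transcript molecule, for at least 4 of the 6 genes, and if these genes together made up at least 0.02% of its UMIs. Of 45132 cell barcodes with over 1000 detected genes and under 10% mitochondrial UMIs, 2251 (4.99%) met this rule. No barcode sequence was shared between the undifferentiated SG of different mice.

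The testes came from 9 male mice on the C57BL/6J background at postnatal day (PND) 24, with 1 droplet 3′ library per mouse. The 3 groups were 4 control mice, described as littermates or non-littermates of the cKO mice with no genotype given for each mouse in the labels, 2 NELF-B conditional knockout (cKO) mice and 3 TDP-43 cKO mice. Each cKO mouse carried 1 floxed and 1 null allele of the targeted gene and the Stra8-iCre transgene, so cells in which the recombinase has not acted still have 1 functional allele. The deposited data of control 2 carry a word for a heterozygote in their name, which the labels do not give, and the mouse was kept as a control. Exons 1 to 4 are floxed in Nelfb and exon 3 in Tardbp, the gene for TDP-43. Stra8-iCre is driven by a promoter of Stra8, a gene that SG switch on in response to retinoic acid. The recombinase can therefore act in some undifferentiated SG and not in others. The rule gave 89, 129, 167 and 133 undifferentiated SG in controls 1 to 4. NELF-B cKO mice 1 and 2 gave 105 and 229, and TDP-43 cKO mice 1 to 3 gave 506, 405 and 488.

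Undifferentiated SG divide along the wall of the seminiferous tubule and either renew themselves or move toward differentiation. Glial cell line-derived neurotrophic factor (GDNF), which Sertoli cells secrete, acts on the receptor RET and the coreceptor GFRA1 and keeps the cells in the stem state through factors such as ETV5, while PLZF (Zbtb16) and the NANOS proteins restrain differentiation. Retinoic acid moves the cells on to KIT-positive differentiating SG, which later enter meiosis as spermatocytes (SC). NELF-B is a subunit of the negative elongation factor, which holds RNA polymerase II in a paused state shortly downstream of a promoter. TDP-43 is an RNA- and DNA-binding protein with roles in splicing and in transcription.

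The libraries differed in what surrounded these cells. Controls held 4879 to 8457 barcodes past the filter with a median of 1754 to 6369 UMIs. TDP-43 cKO mice held 3023 to 3947 barcodes with a median of 14117 to 19254, and the NELF-B cKO mice lay on either side, with 5638 barcodes of 5165 UMIs in mouse 1 and 2982 of 17312.5 in mouse 2. Among the undifferentiated SG themselves the depth was more alike, with medians of 18363 (NELF-B cKO 1) to 41359.5 (TDP-43 cKO 1) UMIs per cell, and their summed counts ran from 1808772 UMIs in control 1 to 23662949 in TDP-43 cKO 1. Cells at the edge of the rule were common. Between 38 and 183 cells per mouse held UMIs of exactly 4 of the genes, and 35 to 175 barcodes with enough rule UMIs held exactly 3 and were left out. Free RNA, read from barcodes of 1 to 100 UMIs, carried transcripts of the other cells of the same testis. No doublet caller was run, and 51 of the 2251 cells also held UMIs of at least 4 of 6 Sertoli genes, while 1045 held UMIs of at least 2 of them, from 21.9% of the cells in NELF-B cKO 1 to 71.6% in NELF-B cKO 2.

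The rule genes were high in the chosen cells of all 9 mice, which follows from the choice and is given as a description. Levels are in CPM, the UMIs of a gene per 1000000 UMIs summed over the cells of a mouse. They come from 3′ ends and are compared between samples, not between genes. Glis3, a zinc finger transcription factor, had 428 to 604 CPM, against 2.54 to 5.86 CPM in differentiating SG, the barcodes chosen by Kit, Stra8, Dmrtb1, Sohlh1, Rhox13 and Esx1. Barcodes that met the rule for undifferentiated SG, or held a UMI of Meiob or Piwil1, were left out of the differentiating SG. The choice thus shaped both sides of the rule gene contrasts. Zbtb16 had 274 to 405 CPM against 22.3 to 49.7, and Trim71, an RNA-binding repressor, had 189 to 267 CPM against 25.7 to 76.3. Egr4 had 133 to 196 CPM, Gfra1 71.9 to 128 CPM and Etv5 25.9 to 40.5 CPM. Etv5 is not particular to SG, since barcodes chosen by Sertoli genes held more of it (38.6 to 63.9 CPM) than the undifferentiated SG in all 9 mice.

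The label was also checked against genes that the rule did not use, as a description with no test, since the cells were chosen by their own counts. Leaving undifferentiated SG out of the differentiating SG can also widen the difference in genes that vary with the rule genes. Of 25 further stem cell genes, 20 were higher in undifferentiated than in differentiating SG in all 9 mice. Ret, the receptor for GDNF, had 35.6 to 62.5 CPM in undifferentiated SG and 0 to 1.06 CPM in differentiating SG. Id4, an inhibitor of basic helix-loop-helix factors that marks the stem cell pool, had 33.6 to 44.2 CPM against 4.89 to 21.2 CPM. Both SG states had little Nanos2, a translational repressor of the stem state, with 1.65 to 7.19 CPM in undifferentiated and at most 0.637 CPM in differentiating SG. Ccnd2, which encodes cyclin D2, had 171 to 267 CPM against 3.61 to 24.9 CPM. The exceptions were Adgra3 and Epcam, which were lower in undifferentiated SG in all 9 mice, with Epcam, an adhesion molecule, at 78.9 to 137 CPM against 169 to 453, and Pax7, Cdh1 and Mcam, which went both ways. Id4 also had 22 to 71 CPM in Sertoli barcodes and 23.9 to 88.1 CPM in free RNA, so its level in these cells is less particular than that of Ret, which had at most 1.05 CPM in Sertoli barcodes and at most 8.35 CPM in free RNA.

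The chosen cells covered more than the stem state. Of 22 progenitor and differentiation genes, 10 were higher in undifferentiated SG in all 9 mice and 10 were lower. Those on the higher side included the progenitor genes Neurog3 (8.07 to 18.6 CPM against 0 to 1.7 CPM), Nanos3 (41.7 to 74.9 CPM against 0.968 to 6.91 CPM), Sox3 and Upp1, which encodes uridine phosphorylase. On the lower side were Kit, the receptor of stem cell factor, with 30.5 to 64.8 CPM against 90 to 165 CPM, Esx1 with 9.5 to 16.3 CPM against 127 to 226 CPM, and Stra8 with 120 to 289 CPM against 252 to 462 CPM. Dmrtb1, Kit, Stra8, Sohlh1, Rhox13 and Esx1 chose the differentiating SG, so their difference is a description only.

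**Figure D1:**
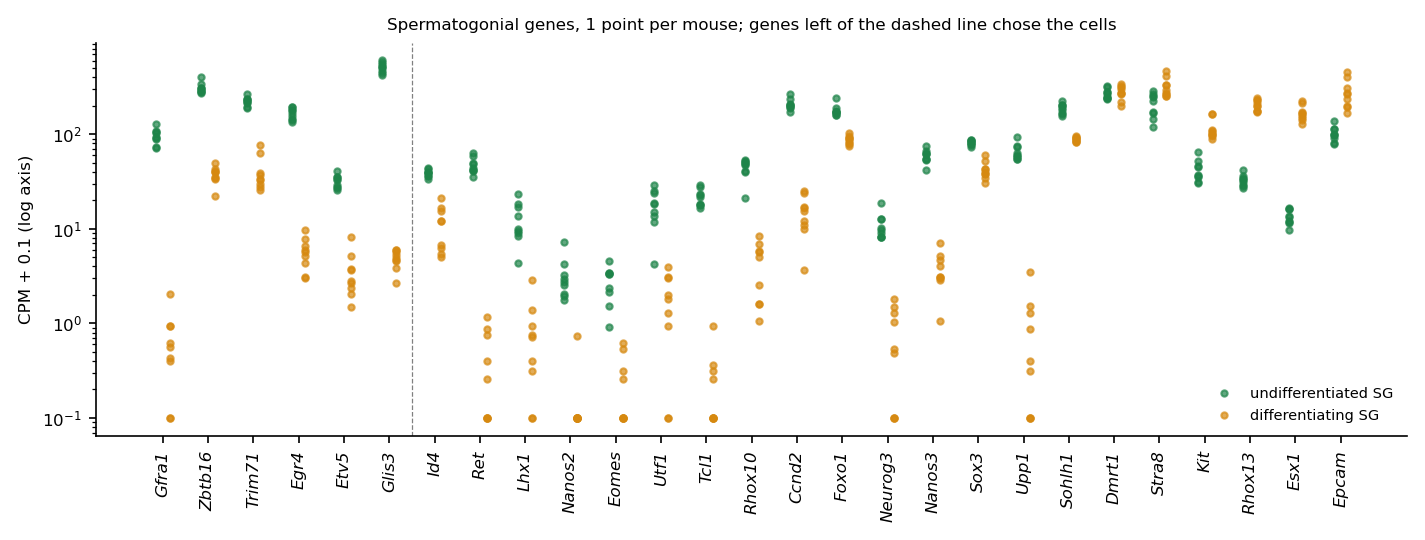
Levels of spermatogonial genes in CPM (log axis, 0.1 CPM added) in undifferentiated SG (green) and differentiating SG (orange), with 1 point per mouse for 9 mice. The genes left of the dashed line chose the undifferentiated SG, those from Id4 to Sohlh1 were higher in undifferentiated SG in all 9 mice, and Stra8, Kit, Rhox13, Esx1 and Epcam were lower.

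To see how far differentiation had begun, each cell was thinned to 10000 UMIs and the cells were parted by whether they still held a UMI of Kit or Stra8. Between 48.3% and 65.6% of them held none. The cells without such a UMI had more Ret (52 to 95.5 CPM against 15.2 to 42.4 CPM) and more Id4 (31.7 to 62.1 CPM against 16 to 32.3 CPM) in all 9 mice. All 6 rule genes were also higher in the cells without such a UMI, a description only, since these genes chose the cells. Nanos3 was higher in them in 9 of 9 mice and Nanos2 in 8 of 9. Sohlh2, a transcription factor of differentiating SG, was lower in them in 9 of 9 mice, and Mki67, a marker of cycling cells, in 8 of 9 (51.9 to 105 CPM against 55.3 to 169 CPM). Other genes went both ways. The differentiation genes Dmrtb1 and Sohlh1 were higher in cells without a Kit or Stra8 UMI in 3 and 2 of 9 mice, and the progenitor genes Sox3 and Neurog3 in 3 and 7 of 9. The cells were parted by their own counts, and these values have no test. Sampling at this depth puts cells that express Kit or Stra8 at a low level on either side.

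The number of undifferentiated SG was compared between the genotypes in relation to all barcodes past the filter and in relation to Sertoli barcodes, the somatic cells that line the tubule. Per 1000 barcodes there were 11.67, 15.25, 32.57 and 27.26 in controls 1 to 4 (mean 21.7 ± 9.85, SD, n = 4). The NELF-B cKO mice had 18.62 and 76.79, which lie inside and above the controls, and the TDP-43 cKO mice had 128.2, 134 and 141.3 (134 ± 6.58, SD, n = 3), all above the controls. The mean of the TDP-43 cKO mice was 6.2 times that of the controls in the exact two-sided permutation test (p = 0.0571), which is the smallest p that 4 against 3 mice allow. For NELF-B cKO the ratio was 2.2 with an exact permutation p = 0.4, where the smallest possible is 0.133. Neither comparison can reach 0.05.

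Depth and the choice of denominator moved these numbers. Barcodes under 10000 UMIs were then left out and the rest thinned to that number before the rule was applied, which left 1052 to 1953 barcodes in controls, 1863 and 2008 in NELF-B cKO and 1856 to 2762 in TDP-43 cKO mice, so the depth and the denominator changed together. Controls had 60.84, 51.7, 78.88 and 46.59 undifferentiated SG per 1000 barcodes, NELF-B cKO mice 40.79 and 74.7, and TDP-43 cKO mice 119.8, 158.9 and 157.8. The ratio for TDP-43 cKO was then 2.45 (exact permutation p = 0.0571), and the difference for NELF-B cKO went from 26 to -1.75 per 1000 (exact permutation p = 0.933). Per Sertoli barcode the groups overlapped. There were 1.435, 0.75, 1.876 and 0.743 undifferentiated SG in controls, 1.167 and 0.727 in NELF-B cKO and 1.035, 1.816 and 1.807 in TDP-43 cKO mice (exact permutation p = 0.533 and p = 0.4). Among the thinned barcodes, with 24 to 94 Sertoli barcodes in controls, the TDP-43 cKO difference per Sertoli barcode went from 0.352 to -0.261 (exact permutation p = 0.629). Over all barcodes past the filter, without thinning, the NELF-B cKO difference per 1000 barcodes was -3.07 without NELF-B cKO 2. Counting only the cells without a Tardbp UMI in TDP-43 cKO mice, a filter that was not applied to the controls, took the difference per 1000 barcodes from 113 to 21.3 and that per Sertoli barcode to -0.696 (exact permutation p = 0.0571 for both). A larger number of these cells and a smaller number of other barcodes cannot be told apart in a share.

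**Figure D2:**
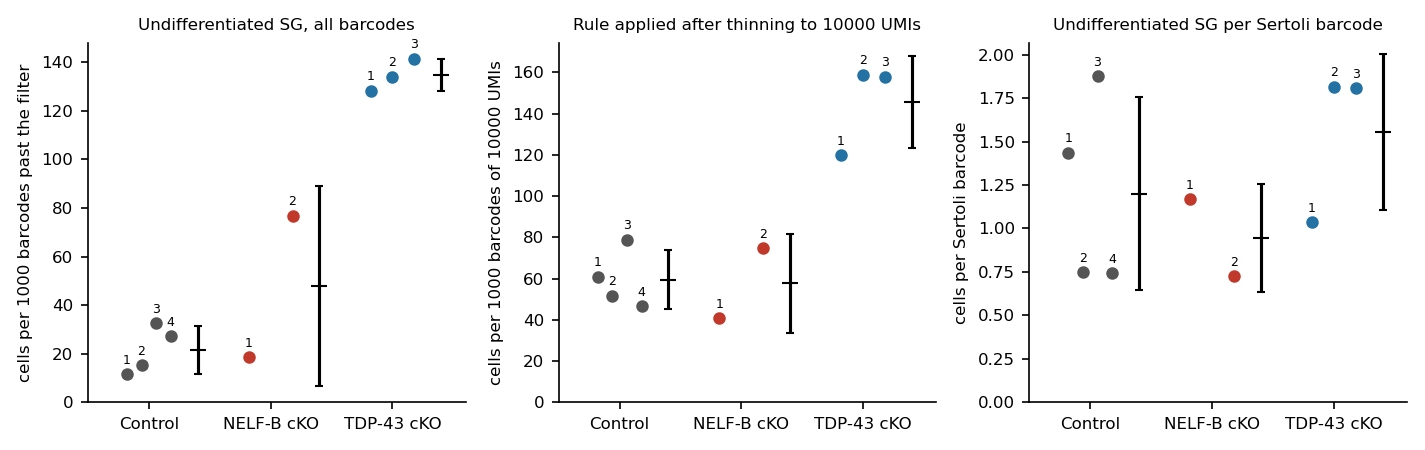
Undifferentiated SG per 1000 barcodes past the filter (left), per 1000 barcodes of at least 10000 UMIs, thinned to that number (middle) and per Sertoli barcode (right), with 1 numbered point per mouse and bars for mean ± SD. The 3 TDP-43 cKO mice lie above the 4 controls in the left and middle panels and among them in the right panel.

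Markers of other cells moved with the genotype in the undifferentiated SG. The 10 Sertoli markers summed to 227 to 451 CPM in controls, 870 and 743 CPM in NELF-B cKO and 609 to 665 CPM in TDP-43 cKO mice, and at least 9 of the 10 had UMIs in every mouse. The 14 spermatid markers summed to 1190 to 2440 CPM in controls, 1440 and 174 CPM in NELF-B cKO and 77.5 to 395 CPM in TDP-43 cKO mice. In free RNA the spermatid sum was 12200 to 20200 CPM in controls, 15700 and 2490 CPM in NELF-B cKO and 374 to 3660 CPM in TDP-43 cKO mice. The Sertoli sum in free RNA was 884 to 1740 CPM in controls, 705 and 6570 CPM in NELF-B cKO and 3400 to 4280 CPM in TDP-43 cKO mice, so NELF-B cKO 1 had the highest Sertoli sum in the cells and the lowest in free RNA. Leydig markers had 10.4 to 28.9 CPM in controls, 666 and 327 CPM in NELF-B cKO 1 and 2, 435 CPM in TDP-43 cKO 1 and 13.1 and 27.4 CPM in TDP-43 cKO 2 and 3. The 8 spermatocyte markers summed to 636 to 693 CPM in controls and 403 to 548 CPM in the cKO mice. The 6 differentiating SG markers summed to 565 to 618 CPM in controls and 422 to 549 CPM in the cKO mice. Stromal markers had 16.6 to 23 CPM in controls, 67.3 and 69.6 CPM in NELF-B cKO and 133, 33.4 and 31.9 CPM in TDP-43 cKO. Macrophage and myoid sums overlapped between the controls and each cKO group. The part of these transcripts in the differences between genotypes was not tested further.

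**Figure D3:**
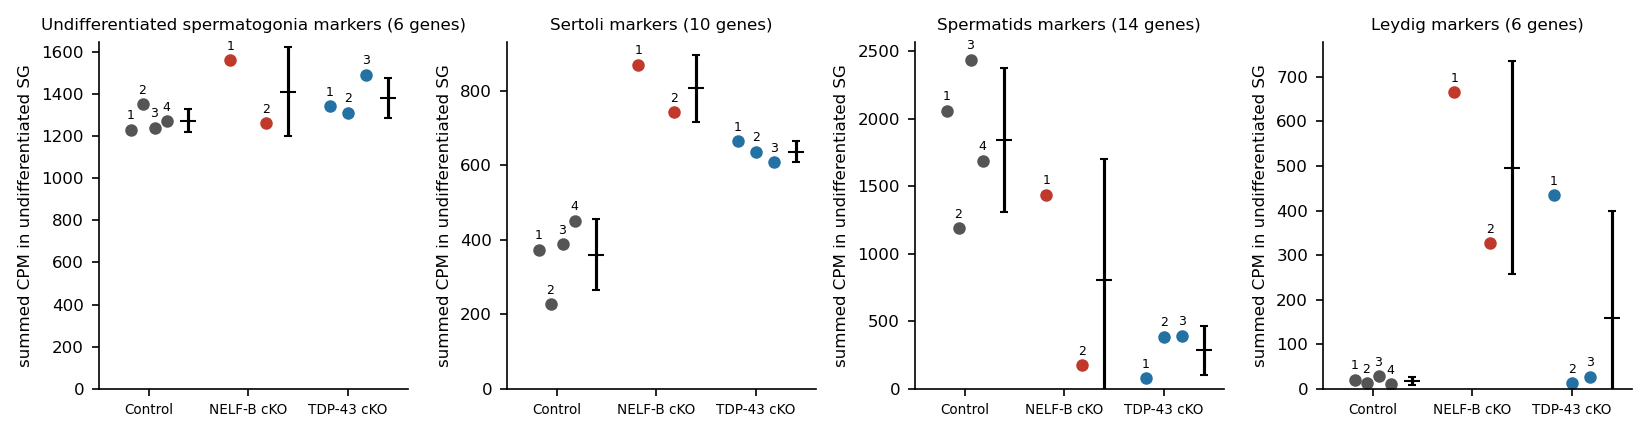
Summed CPM in undifferentiated SG of the 6 rule genes and of 10 Sertoli, 14 spermatid and 6 Leydig markers, with 1 numbered point per mouse and bars for mean ± SD, cut at 0. Sertoli markers are higher in all 5 cKO mice than in the 4 controls, and Leydig markers are high in both NELF-B cKO mice and in TDP-43 cKO 1.

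The targeted genes were read first as a check of the genotypes. In GRCm38, the Nelfb gene spans 25199712 to 25211489 of chromosome 2 and Tardbp spans 148612382 to 148627019 of chromosome 4, both on the minus strand. Nelfb had 61.4, 56.1, 53.7 and 51.8 CPM in the undifferentiated SG of controls 1 to 4, 2.07 and 6.76 CPM in NELF-B cKO and 55.4, 49.0 and 53.7 CPM in TDP-43 cKO. Both NELF-B cKO mice lay far below all other mice. The fall was 10.7-fold in edgeR's quasi-likelihood test over all 9 mice (log2 fold change -3.41, SE 0.30, adjusted p = 0.011). Free RNA in the same libraries held 2.78 to 5.53 CPM of Nelfb. It made up an estimated 13.1% and 12.1% of the UMIs of the undifferentiated SG in NELF-B cKO 1 and 2. With free RNA subtracted the log2 difference was -3.48 in edgeR. The part of free RNA in the Nelfb UMIs that remained was not tested. After thinning, 4.17% (95% exact interval 1.15% to 10.3%) and 4.41% (2.13% to 7.95%) of the undifferentiated SG of NELF-B cKO 1 and 2 held a Nelfb UMI, against 38.9% to 53.6% in controls. Before thinning the shares were 4.76% and 14.4%. Those intervals cover counting error only. In NELF-B cKO 1 the level was 6.06 CPM in cells with a Kit or Stra8 UMI and 3.17 CPM in cells without. In NELF-B cKO 2 it was 2.13 and 6.77 CPM, so Nelfb was low on both sides of that split. These levels rest on 2 and 2 Nelfb UMIs in NELF-B cKO 1 and on 2 and 9 in NELF-B cKO 2, too few to compare the sides. Without control 1, 2 or 4 the adjusted p of Nelfb in edgeR was 0.0681, 0.0596 or 0.0589, with log2 differences of -3.36, -3.42 and -3.46.

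Tardbp was lower in TDP-43 cKO mice, but by less and without passing the threshold. It had 65.8, 62.6, 67.2 and 70.7 CPM in controls, 72.7 and 74.2 CPM in NELF-B cKO and 37.0, 39.5 and 41.3 CPM in TDP-43 cKO mice, with no overlap between the TDP-43 cKO mice and any other mouse. The difference from control was 1.67-fold (log2 -0.74, SE 0.08, adjusted p = 0.0524 in edgeR). DESeq2, another count test, gave an adjusted p of 2.7e-08. The adjusted p in edgeR was 0.0467 without control 2, 0.0179 without NELF-B cKO 1 and 0.017 without NELF-B cKO 2, and it was 0.101 to 0.161 without control 1, 3 or 4 and 0.11 to 0.147 without any 1 of the TDP-43 cKO mice. UMIs read from the 3′ end of Tardbp lie outside exon 3 and do not report on the deletion itself, so the remaining transcripts cannot be assigned to intact or deleted alleles. Free RNA held 55.6 to 94.2 Tardbp CPM in the same libraries, more than the cells did. Differentiating SG held 30.2 to 39.3 Tardbp CPM in TDP-43 cKO mice and 85.7 to 113 in controls. After thinning, 28.8% to 34.4% of the undifferentiated SG of TDP-43 cKO mice held a Tardbp UMI, against 47.6% to 58% in controls. Before thinning the shares were 64.4% to 71.7% and 74.2% to 79.1%. The study removed germ cells that expressed the targeted gene from its cKO samples, while such cells were kept here.

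**Figure D4:**
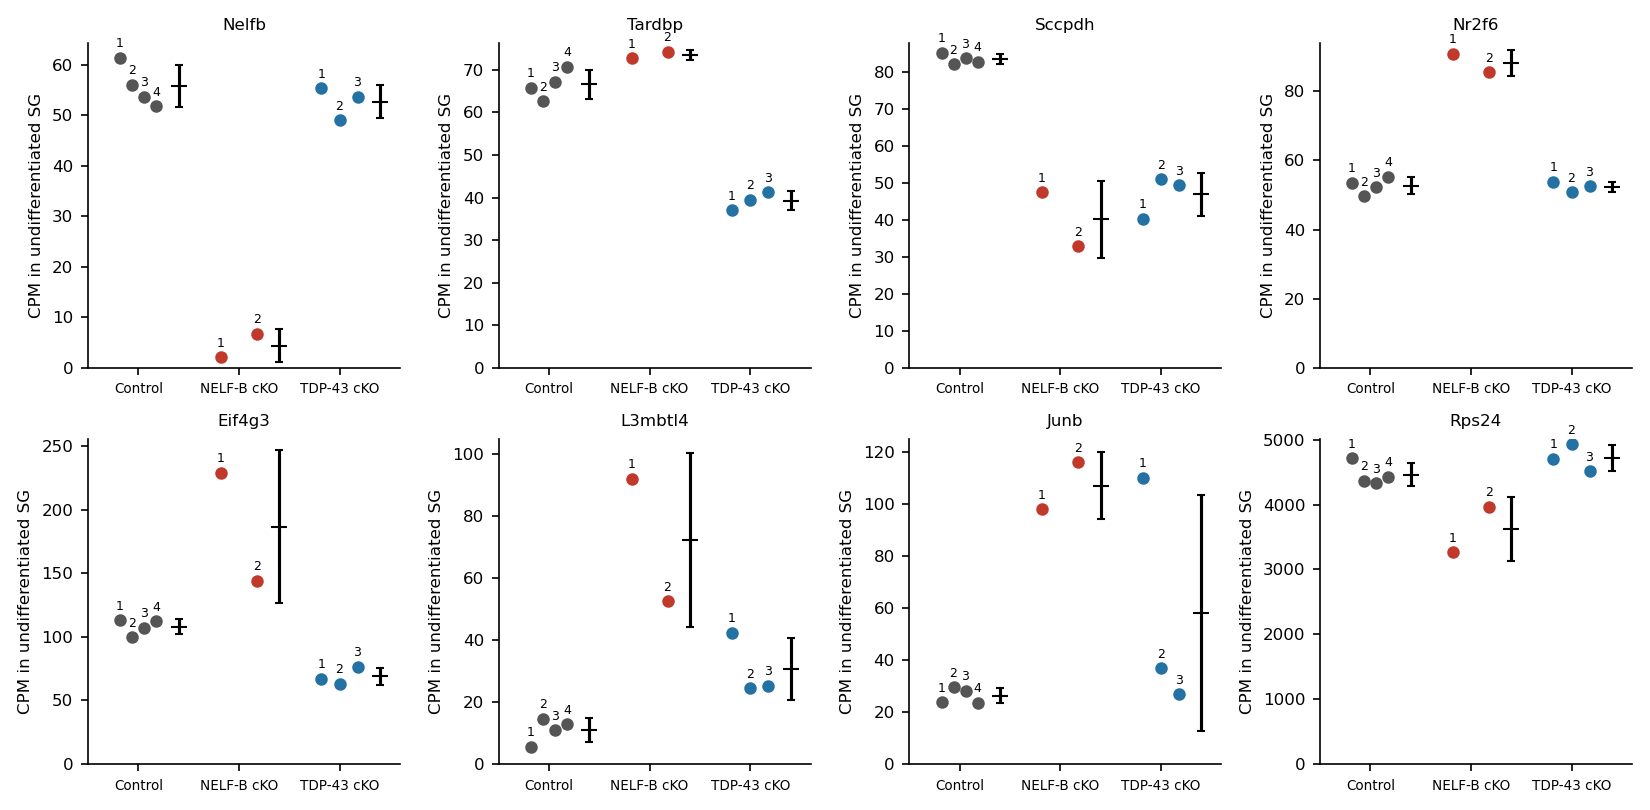
CPM per mouse of 8 genes in undifferentiated SG (Nelfb, Tardbp, Sccpdh, Nr2f6, Eif4g3, L3mbtl4, Junb and Rps24), with numbered points for the mice of each group and bars for mean ± SD. Nelfb lies at 2.07 and 6.76 CPM in NELF-B cKO mice, and Junb is high in both NELF-B cKO mice and in TDP-43 cKO 1.

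To ask what the loss of NELF-B changed in undifferentiated SG, their UMIs were summed per mouse and NELF-B cKO was tested against control over 16513 genes. A gene is named as called where edgeR gave an adjusted p under 0.05. Apart from Nelfb, only Sccpdh fell (2 genes in all, 0.0121% of those tested), and 11 genes rose (0.0666%), which makes 13 in either direction (0.0787%). The genes that rose differed in their level in Sertoli barcodes. Nr2f6, Dytn and Gm13026 had at most 27.7, 8.92 and 5.18 CPM in Sertoli barcodes of any mouse. The others (L3mbtl4, Akr1b8, Hmg20b, Smim1, Drd4, Gm35533, Zfhx4 and Cmbl) reached 64.5 to 818 CPM there. Naming Dytn, Gm13026, Smim1, Drd4, Gm35533, Zfhx4 and Cmbl was decided after their values were seen.

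Nr2f6, an orphan nuclear receptor, had 53.6, 49.7, 52.3 and 55.3 CPM in controls and 90.9 and 85.6 CPM in NELF-B cKO mice, a rise of 0.71 on the log2 scale (SE 0.09, adjusted p = 0.0485). Its level in TDP-43 cKO mice was 53.8, 50.8 and 52.5 CPM. So the 2 NELF-B cKO mice stood above all 7 others. Dytn, which encodes a protein of the dystrophin family, had 0, 1.09, 0.918 and 0.274 CPM in controls and 16.9 and 12.3 CPM in NELF-B cKO mice (log2 4.38, SE 0.62, adjusted p = 0.0485). In TDP-43 cKO mice it had 4.94, 1.73 and 2.69 CPM. An estimate of free RNA was also subtracted from each mouse, its share read from spermatid, Leydig, endothelial and macrophage markers. The share was 9.88% to 14.6% in controls, 13.1% and 12.1% in NELF-B cKO and 23.1%, 11.2% and 15.7% in TDP-43 cKO mice. In NELF-B cKO 1 the Leydig markers had 666 CPM in the cells and 540 CPM in free RNA, so its share may be too high. In TDP-43 cKO 1, with the highest share, they had 435 CPM in the cells and 1390 CPM in free RNA. The macrophage markers had 44.8 and 695 CPM there, and the spermatid markers 77.5 and 374 CPM. Its share may therefore also be too high, which bears on every TDP-43 cKO difference given after the subtraction. Nelfb, Nr2f6 and Dytn were also called after the subtraction, with adjusted p-values of 0.00967, 0.0425 and 0.0498 in edgeR. They were the 3 of the 13 genes for which this held. Of the genes no longer called, L3mbtl4 had a log2 difference of 3.52, Hmg20b 0.93, Akr1b8 0.65 and Sccpdh -1.32 after the subtraction. Their adjusted p-values in edgeR were 0.225, 0.625, 0.897 and 0.484. Counts that fell below 0 were set to 0, so a fold after the subtraction can rest on few UMIs and be enlarged.

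Sccpdh, related to saccharopine dehydrogenases, had 85.1, 82, 83.7 and 82.7 CPM in controls and fell to 47.5 and 32.8 CPM in NELF-B cKO mice (log2 -1.12, SE 0.15, adjusted p = 0.0485). The TDP-43 cKO mice had 40.3, 50.9 and 49.4 CPM (log2 -0.81, adjusted p = 0.067 in edgeR), and with free RNA subtracted the TDP-43 cKO difference was -0.03. Free RNA of the controls held 380 to 448 CPM of Sccpdh, against 76.3 to 365 CPM in NELF-B cKO and 44 to 146 CPM in TDP-43 cKO libraries. Uqcc2, an assembly factor of respiratory complex III, had the next smallest p among genes at lower levels and was not called (610, 575, 576 and 538 CPM in controls, 330 and 378 CPM in NELF-B cKO, log2 -0.73, adjusted p = 0.0651 in edgeR and 9.1e-09 in DESeq2), and free RNA held 1290 to 1560 CPM of Uqcc2 in controls and 554 to 1190 CPM in NELF-B cKO. Fam178b had 160 to 165 CPM in controls and 123 and 111 CPM in NELF-B cKO (log2 -0.51, adjusted p = 0.101 in edgeR and 0.00051 in DESeq2), and its free RNA had 216 to 311 and 62.3 to 211 CPM.

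L3mbtl4, a chromatin protein of the malignant brain tumor family, rose the most among called genes with a mean over all mice of at least 20 CPM. It had 5.53, 14.6, 10.8 and 12.9 CPM in controls, 92.1 and 52.5 CPM in NELF-B cKO and 42.3, 24.5 and 25.2 CPM in TDP-43 cKO mice (log2 2.61, SE 0.33, adjusted p = 0.0485 for NELF-B cKO). Hmg20b, a component of the LSD1-CoREST complex, rose from 19.5 to 26 CPM to 49.6 and 42.2 CPM (log2 1.02, SE 0.14). Akr1b8, an aldo-keto reductase, rose from 12.2 to 15.5 CPM to 32.6 and 33.8 CPM (log2 1.26, SE 0.17). Sertoli barcodes held 515 to 818 CPM of L3mbtl4, 172 to 271 CPM of Hmg20b and 298 to 420 CPM of Akr1b8. In undifferentiated SG with fewer than 2 of the 6 Sertoli rule genes, which leaves out 1045 of the 2251 cells and 71.6% of those of NELF-B cKO 2, the NELF-B cKO difference was 1.00 for L3mbtl4, 0.72 for Hmg20b, 0.72 for Akr1b8 and 0.22 for Gm35533 on the log2 scale, and it was 0.81 for Nr2f6. No gene was called among those cells, and Nelfb had an adjusted p of 0.0956 there.

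The count of genes depended on 1 mouse at a time. Without TDP-43 cKO 1 in the shared fit, 344 genes were higher and 47 lower, and without NELF-B cKO 2, 55 and 23, while leaving out any other mouse left 0 to 2 higher and 0 or 1 lower. DESeq2 called 357 genes higher (2.09% of those it tested) and 189 lower (1.11%).

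In TDP-43 cKO mice against control, no gene passed the threshold in either direction (0% of 16513 tested) in edgeR, where 3462 genes (21%) had an unadjusted p under 0.05, 1217 of them higher (7.37%) and 2245 lower (13.6%). DESeq2 called 360 genes higher (1.73%) and 1235 lower (5.95%), and edgeR called 332 higher and 1133 lower without NELF-B cKO 1, 290 and 1127 without NELF-B cKO 2, and 4 and 3 without control 2. Tardbp and Cmbl had the smallest adjusted p (0.0524). Cmbl, a hydrolase, had 0.553 to 1.37 CPM in controls, 13.4, 8.27 and 6.96 CPM in TDP-43 cKO and 7.85 and 10.3 CPM in NELF-B cKO mice.

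The genes named by the rule in this comparison had an adjusted p of 0.067 in edgeR and were not called, while DESeq2 called each of them, with adjusted p-values of 2e-06 for Armt1 and Aard, 2.4e-06 for Catsperd, 2.2e-05 for Sccpdh, 4.4e-05 for Akr1b8 and 0.00011 for Ifi27. Armt1, a methyltransferase for acidic residues, had 38.7, 34.7, 39.2 and 36.4 CPM in controls and 16.1 to 20.6 CPM in TDP-43 cKO mice (log2 -0.98, SE 0.12). Catsperd, a subunit of the calcium channel of sperm, had 33.7 to 45.6 CPM in controls and 19.2, 16 and 21.7 CPM in TDP-43 cKO. Both transcripts were abundant in the free RNA of controls, with 155 to 175 CPM of Armt1 and 77.9 to 144 CPM of Catsperd, and lower in that of TDP-43 cKO mice, with 20.1 to 84.7 CPM and 15.8 to 53.5 CPM. On the other side, Aard had 17.7, 17.9, 28 and 39.7 CPM in controls and 80.1, 81.6 and 68.8 CPM in TDP-43 cKO mice (log2 1.58, SE 0.25). Aard is a Sertoli marker with 1570 to 2780 CPM in Sertoli barcodes, and free RNA held 115 to 257 CPM of it in controls and 584 to 897 CPM in TDP-43 cKO. Akr1b8 (log2 1.08) and Ifi27, an interferon-induced gene (log2 0.92, 32.3 to 43.4 CPM in controls and 88.7, 61.7 and 61.5 CPM in TDP-43 cKO), had the same adjusted p in edgeR. With free RNA subtracted the Akr1b8 difference turned to -0.17, where the share taken from TDP-43 cKO 1 may be too high. Free RNA held 33.9 to 50.6 CPM of Ifi27 in controls and 75.2 to 320 CPM in TDP-43 cKO.

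Whether the 2 knockouts differed from each other was tested directly. NELF-B cKO was higher than TDP-43 cKO for Tardbp and Eif4g3 (2 genes, 0.0121%) and lower for Nelfb and Filip1 (2 genes, 0.0121%), so 4 genes differed (0.0242%). Eif4g3, a scaffold of the translation initiation complex, had 113, 99.7, 107 and 112 CPM in controls, 229 and 144 CPM in NELF-B cKO and 67.1, 62.9 and 76.3 CPM in TDP-43 cKO mice, so the cKO mice lay on opposite sides of the controls (log2 1.36, SE 0.16, adjusted p = 0.0429). Filip1, which binds filamin, had 14.4, 14.8, 11.9 and 18.6 CPM in controls, 6.61 and 5.23 CPM in NELF-B cKO and 22.1, 31.3 and 22.0 CPM in TDP-43 cKO mice (log2 -2.18, SE 0.26, adjusted p = 0.0481). Tardbp differed by 0.85 (SE 0.10, adjusted p = 0.0429) and Nelfb by -3.37 (adjusted p = 0.0134) on the log2 scale.

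Nr2f6 (log2 0.69, adjusted p = 0.0658), Cep350, a centrosomal protein (0.74, adjusted p = 0.162), Tmem160 (-1.05, adjusted p = 0.051), Osbpl10, a lipid transfer protein (-0.98, adjusted p = 0.0767), and Igf2bp3, an RNA-binding protein (-0.75, adjusted p = 0.162), had the smallest p-values among the other genes that the rule names and were not called between the knockouts in edgeR. DESeq2 called all 5, with adjusted p-values of 1.4e-08 for Tmem160, 4.5e-07 for Nr2f6, 4.5e-06 for Igf2bp3, 4.3e-05 for Osbpl10 and 0.00025 for Cep350. Tmem160 had 54.1 to 58.1 CPM in controls, 32.6 and 41.1 CPM in NELF-B cKO and 77.8, 74.1 and 72.1 CPM in TDP-43 cKO mice. When the fit held only the 5 cKO mice no gene was called, and 193 genes were higher and 208 lower without NELF-B cKO 2, and 102 and 15 without TDP-43 cKO 1, against 0 or 1 in either direction without any other mouse. DESeq2 called 79 genes higher (0.566%) and 169 lower (1.21%).

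Lists of genes by function were then described by their counts and median log2 fold change, beside the median of all tested genes (-0.03 for NELF-B cKO and 0.01 for TDP-43 cKO against control). Both comparisons used the same controls. Over the 17 lists, only Nelfb in the list of NELF and pause release genes and, between the knockouts, Nelfb again and Tardbp among the related RNA-binding proteins were called, so the counts that follow are at an unadjusted p under 0.05 in edgeR, for which the background is 9% of genes higher and 8.23% lower in NELF-B cKO and 7.37% and 13.6% in TDP-43 cKO.

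Of the 25 stem cell genes outside the rule, 2 were higher and 3 lower in NELF-B cKO (8% and 12%) and 1 was higher and 1 lower in TDP-43 cKO (4% each), with a median of -0.02 in both, and DESeq2 called none in either. The NELF-B cKO shares were near the background. Groups did not overlap for 5 genes on the lower side in NELF-B cKO (20%, against 10.4% of all genes). Utf1, a chromatin-associated factor of undifferentiated cells, had 18.8, 13.7, 18.4 and 14.8 CPM in controls, 4.13 and 11.7 CPM in NELF-B cKO and 25.1, 28.6 and 24.1 CPM in TDP-43 cKO mice (log2 -0.93 and 0.69, adjusted p = 0.212 and 0.175 in edgeR), so the knockouts lay on opposite sides of the controls. Lhx1, a GDNF-regulated transcription factor, had 8.29 to 18.1 CPM in controls, 23.5 and 16.7 CPM in NELF-B cKO and 4.25 to 9.47 CPM in TDP-43 cKO. Eomes had 3.21 to 4.42 CPM in controls and 0.826 and 2.29 CPM in NELF-B cKO (log2 -1.01, adjusted p = 0.34). Ccnd2 had 190 to 211 CPM in controls, 171 and 267 CPM in NELF-B cKO and 193 to 234 CPM in TDP-43 cKO mice. Foxo1, a transcription factor of the insulin and AKT pathway, had 159 to 172 CPM in controls, 241 and 178 CPM in NELF-B cKO and 161 to 188 CPM in TDP-43 cKO. Ret had 62.5, 43.6, 35.6 and 41.6 CPM in controls, 48.7 and 58.5 CPM in NELF-B cKO and 40.5, 42 and 49.4 CPM in TDP-43 cKO mice. The groups overlapped for Ccnd2 and Ret, and also for Id4, which had 36.2 to 44.2 CPM in controls, 39.2 and 39.4 CPM in NELF-B cKO and 33.6 to 39.7 CPM in TDP-43 cKO.

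Of 29 genes of GDNF and fibroblast growth factor signalling, 3 were higher and 1 lower in NELF-B cKO and 2 higher and none lower in TDP-43 cKO, with medians of 0.13 and 0.11. Grb2, the adaptor between receptor and RAS, had 104, 111, 109 and 94.8 CPM in controls and 154 and 143 CPM in NELF-B cKO, a log2 difference of 0.47 that was not called (adjusted p = 0.101). Fgfr1 had 29.1 to 37.1 CPM in controls and 26.8 and 22.9 CPM in NELF-B cKO (log2 -0.48, adjusted p = 0.146). The most abundant, Map2k2 and Fgfr2, had log2 differences of -0.05 and -0.30 in NELF-B cKO and 0.23 and 0.11 in TDP-43 cKO.

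Progenitor and differentiation genes gave 1 of 22 higher and 1 lower in NELF-B cKO and 5 higher and 2 lower in TDP-43 cKO. Stra8 had 247, 289, 253 and 226 CPM in controls, 120 and 264 CPM in NELF-B cKO and 145, 166 and 170 CPM in TDP-43 cKO mice, where every mouse lay below the controls (log2 -0.64, SE 0.23, adjusted p = 0.14). The most abundant members, Uchl1 and Dazl, had 710 to 858 and 642 to 746 CPM in controls and log2 differences of 0.05 and -0.05 in NELF-B cKO and 0.20 and 0.19 in TDP-43 cKO. Dmrtb1, a transcription factor of differentiating SG, had 53.4 to 101 CPM in controls and 8.79, 19.4 and 29.4 CPM in TDP-43 cKO (log2 -1.95, adjusted p = 0.0842), and free RNA held 633 to 770 CPM of it in controls and 28.2 to 169 CPM in TDP-43 cKO. The 18 retinoic acid genes tested gave 3 higher and 2 lower in NELF-B cKO and 2 and 4 in TDP-43 cKO. Crabp1, a retinoic acid-binding protein, had 121 to 167 CPM in controls, 119 and 142 CPM in NELF-B cKO and 142 to 157 CPM in TDP-43 cKO. Aldh1a1, an enzyme of retinoic acid synthesis, had 7.42 to 25.7 CPM in controls and 313, 269 and 234 CPM in NELF-B cKO 1, NELF-B cKO 2 and TDP-43 cKO 1, the same 3 mice in which Leydig markers were high, and 15.7 and 25.8 CPM in the other 2.

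None of the remaining subunits of NELF was called in edgeR. Nelfa had 39 to 43.6 CPM in controls and 48.3 and 46 CPM in NELF-B cKO, Nelfcd had 42.2 to 54.5 and 41.7 and 44.9 CPM, and Nelfe had 93.4 to 108 and 114 and 110 CPM. The log2 differences were 0.17 (SE 0.10), -0.12 (SE 0.13) and 0.11 (SE 0.09). Nelfcd had 59.8, 61.9 and 58 CPM in TDP-43 cKO mice, all above the controls (log2 0.40, adjusted p = 0.084 in edgeR and 0.023 in DESeq2). Among all 30 NELF and pause release genes, 1 was higher and 4 lower in NELF-B cKO, Nelfb included, and 2 were higher and 1 lower in TDP-43 cKO. Larp7, which holds the kinase P-TEFb in its inactive complex, had 168 to 210 CPM in controls and 135 and 117 CPM in NELF-B cKO (log2 -0.64, SE 0.13, adjusted p = 0.101). Larp7 was lower in TDP-43 cKO mice as well, with 125, 155 and 145 CPM, and free RNA held 347 to 395 CPM of it in controls, 103 to 331 CPM in NELF-B cKO and 85.9 to 238 CPM in TDP-43 cKO. Of 23 RNA-binding proteins related to TDP-43, Tardbp was the only one with an unadjusted p under 0.05 in TDP-43 cKO, and in NELF-B cKO 1 was higher and 1 lower. Matr3 and Hnrnpa2b1 had log2 differences of 0.08 and -0.02.

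The immediate early genes, which cells transcribe within minutes of a stimulus, had the highest median of the 17 lists in both knockouts. Of 36 genes, 18 (50%) were higher and 1 lower in NELF-B cKO, with a median log2 of 0.56, and 20 (55.6%) had both NELF-B cKO mice above all controls, against 13.6% of all genes. DESeq2 called 12 of them higher. In TDP-43 cKO 15 (41.7%) were higher and 1 lower with a median of 0.47. For 8 genes (22.2%) all TDP-43 cKO mice lay above all controls, against 7.79% of all genes. Jun had 21.6, 24.6, 39.9 and 46.3 CPM in controls, 163 and 160 CPM in NELF-B cKO and 148, 54.7 and 42.8 CPM in TDP-43 cKO mice. Junb had 23.8, 29.4, 28.2 and 23.6 CPM, then 97.9 and 116 CPM, then 110, 36.8 and 26.9 CPM in the same order. Both genes were thus high in the 2 NELF-B cKO mice and in TDP-43 cKO 1, and TDP-43 cKO 2 and 3 lay near the controls.

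The list as a whole was highest in the same 3 mice, in which the Leydig markers (327 to 666 CPM, against 10.4 to 28.9 CPM in the other 6) and Malat1 were also highest. It summed to 973 to 1190 CPM in controls, to 1920 and 2260 CPM in NELF-B cKO 1 and 2, to 2010 CPM in TDP-43 cKO 1 and to 1380 and 1240 CPM in TDP-43 cKO 2 and 3. Fos, the most abundant but for Jund, had 49.3 to 88.8 CPM in controls, 210 and 252 CPM in NELF-B cKO and 207, 98.2 and 73.3 CPM in TDP-43 cKO (log2 1.78, adjusted p = 0.103 for NELF-B cKO). Jund had 241 to 313 CPM in controls, 300 and 460 CPM in NELF-B cKO and 352 to 397 CPM in TDP-43 cKO (log2 0.44 and 0.48). Btg2, an antiproliferative gene, came nearest to the threshold (35.4 to 47.8 CPM in controls, 108 and 101 CPM in NELF-B cKO, log2 1.23, adjusted p = 0.0711). In free RNA the list summed to 777 to 877 CPM in controls and to 1270 and 5330 CPM in NELF-B cKO. TDP-43 cKO mice had 5590, 2130 and 2070 CPM there. Every cKO mouse lay above all controls in the cells and in free RNA. NELF-B cKO 1 was the lowest cKO mouse in free RNA but not in the cells. Sertoli barcodes held 2690 to 3430 CPM of the list in controls. They held 2180 and 8950 CPM in NELF-B cKO and 5030 to 5950 CPM in TDP-43 cKO. Differentiating SG held 940 to 1260 CPM of it in controls and 806 and 1980 CPM in NELF-B cKO 1 and 2. In TDP-43 cKO 1, 2 and 3 they held 1950, 1380 and 1270 CPM. With free RNA subtracted, the Fos difference was 1.51 in NELF-B cKO and -0.50 in TDP-43 cKO. The share taken from TDP-43 cKO 1 may be too high, so the sign of the latter is uncertain. Among cells with fewer than 2 Sertoli genes it was 1.03 and 0.66. The part of free RNA and of other cells, Leydig cells included, in these values was not tested further.

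No cytosolic ribosomal protein gene was called in edgeR. Of 80 genes, 23 (28.7%) were lower and none higher in NELF-B cKO, with a median log2 of -0.23, while 10 (12.5%, against 7.37% of all genes) were higher and 1 lower in TDP-43 cKO, with a median of 0.13. Between the knockouts directly, 55 of 80 (68.8%) were lower in NELF-B cKO, against 6.83% of all genes (5.6% higher), with a median of -0.36, and DESeq2 called 25 of them. Together the 80 genes made up 150000 to 155000 CPM in controls and 119000 and 144000 CPM in NELF-B cKO. TDP-43 cKO mice had 170000, 168000 and 155000 CPM, the last of which equals the highest control. Their sum in differentiating SG was 123000 to 131000 CPM in controls and 89200 and 107000 CPM in NELF-B cKO. It was 151000, 141000 and 133000 CPM in the differentiating SG of TDP-43 cKO mice. Rps24, the most abundant, had 4720, 4370, 4330 and 4430 CPM in controls, 3270 and 3970 CPM in NELF-B cKO and 4710, 4930 and 4520 CPM in TDP-43 cKO mice. Both NELF-B cKO mice lay below all other mice for Rps24, while the TDP-43 cKO mice overlapped with the controls. Its difference between the knockouts (log2 -0.44, SE 0.13) was not called in edgeR (adjusted p = 0.27). Free RNA held less Rps24 than the cells, 1950 to 2210 CPM in controls and 2470 to 3580 CPM in TDP-43 cKO. With the size factors of DESeq2 in place of TMM, the Rps24 differences were the same to 2 decimals (-0.33, 0.11 and -0.44). In cells with fewer than 2 Sertoli genes the Rps24 difference in NELF-B cKO was -0.20. Sertoli and Leydig markers and Malat1 were higher in both NELF-B cKO mice than in the controls, and their part in these values was not tested.

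**Figure D5:**
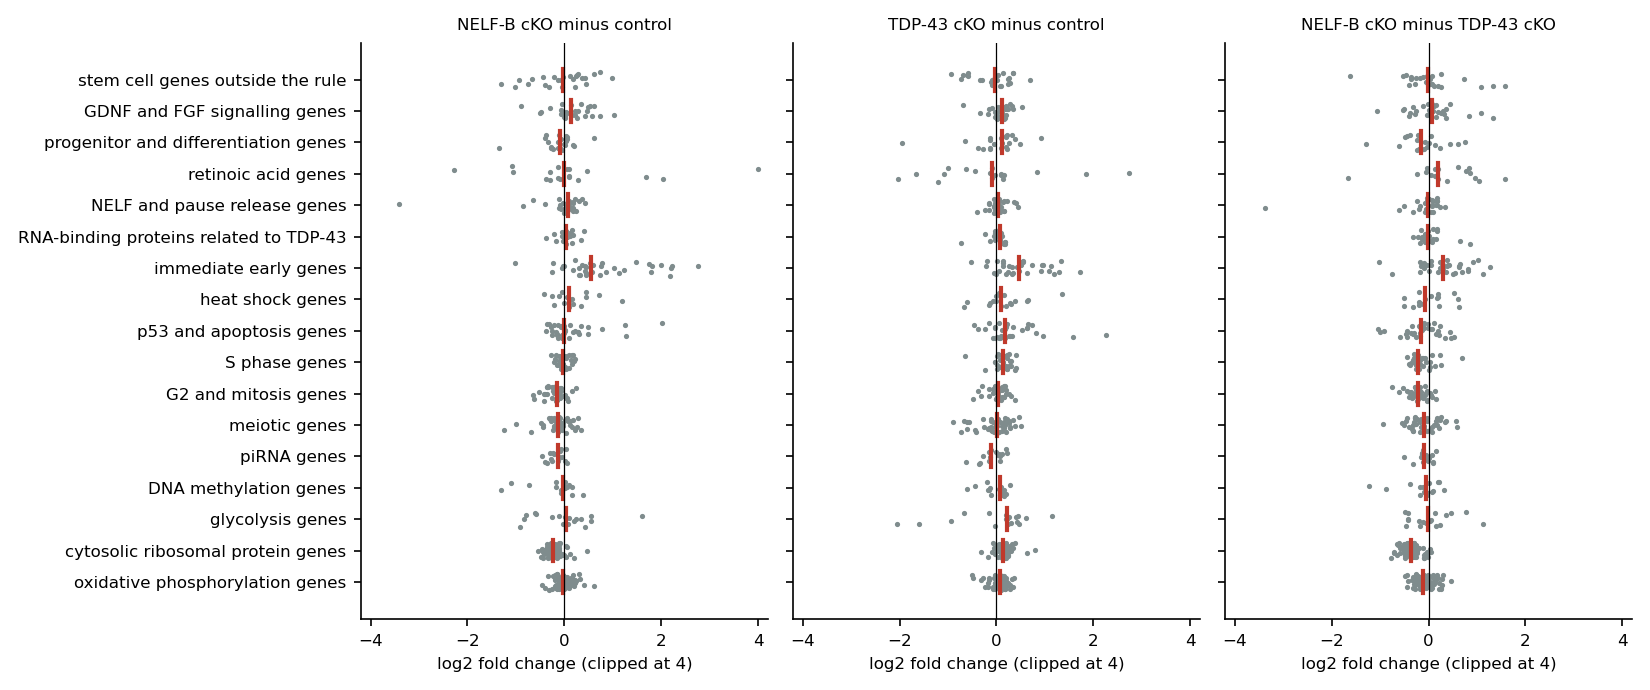
Log2 fold change of each gene (points, clipped at 4) in 17 lists for NELF-B cKO minus control, TDP-43 cKO minus control and NELF-B cKO minus TDP-43 cKO, with the list median as a red line. Medians of the immediate early genes lie at 0.56, 0.47 and 0.30, and those of the ribosomal protein genes at -0.23, 0.13 and -0.36.

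Of 39 genes of G2 and mitosis, 11 (28.2%) were lower and none higher in NELF-B cKO, with a median of -0.16, against 1 higher and 4 lower in TDP-43 cKO. The sum of the list overlapped, with 4650 to 5190 CPM in controls and 4330 and 5080 CPM in NELF-B cKO. In differentiating SG the sum was higher in NELF-B cKO, with 8920 and 9850 CPM against 6740 to 8310 CPM in controls. Plk1, a kinase of mitotic entry, had 24.6 to 25.5 CPM in controls and 14.9 and 17.2 CPM in NELF-B cKO (log2 -0.64, SE 0.13, adjusted p = 0.101), with 48 to 62.6 and 13.6 to 60 CPM of Plk1 in free RNA, and Aurka, a spindle kinase, had 39.2 to 44.2 CPM and 27.3 and 28 CPM (log2 -0.62, SE 0.11, adjusted p = 0.101). DESeq2 called 3 genes of this list lower in NELF-B cKO. Free RNA held 181 to 211 CPM of Aurka in controls and 49 to 170 CPM in NELF-B cKO. The most abundant genes, Hmgb2 and Cenpf, had log2 differences of 0.24 and -0.18, and Mki67 had 72.4 to 126 CPM in controls, 110 and 121 CPM in NELF-B cKO and 96.5 to 121 CPM in TDP-43 cKO mice. None of the 33 S phase genes had an unadjusted p under 0.05 in NELF-B cKO, whereas 6 were higher and 1 lower in TDP-43 cKO, where 29 of 33 lay above 0 with a median of 0.14. Mcm7, a subunit of the replicative helicase, had 177 to 184 CPM in controls and 206, 218 and 197 CPM in TDP-43 cKO (log2 0.22, SE 0.09, adjusted p = 0.208), and Hells had log2 differences of -0.06 and 0.15.

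Among stress and death genes, the p53 and apoptosis list had 7 of 34 higher (20.6%) and none lower in TDP-43 cKO, with a median of 0.18, and 2 higher in NELF-B cKO with a median of -0.01. The rise in TDP-43 cKO was not particular to these cells. In Sertoli barcodes the list summed to 1550 to 1720 CPM in controls and 1810 to 1890 CPM in TDP-43 cKO. The sums were 2180 to 2380 and 2450 to 2540 CPM in differentiating SG, and 911 to 1200 and 1690 to 1770 CPM in free RNA. The part of other cells was not tested. Cdkn1a, the cell cycle inhibitor p21, had 7.19, 6.11, 7.11 and 10.1 CPM in controls, 11.6 and 14.7 CPM in NELF-B cKO and 18.8, 10.5 and 14.4 CPM in TDP-43 cKO mice (log2 0.97, SE 0.25, adjusted p = 0.0781 for TDP-43 cKO), and free RNA held 4.76 to 7.73 CPM of Cdkn1a in controls and 13.5 to 22.9 CPM in TDP-43 cKO. Casp8, an initiator caspase, had 0.553 to 3.29 CPM in controls and 9.13, 9.84 and 8.73 CPM in TDP-43 cKO (log2 2.26, SE 0.47, adjusted p = 0.067). Bax had 193 to 217 CPM in controls and 239 to 259 CPM in TDP-43 cKO (log2 0.29), and Rps27l 294 to 353 and 341 to 409 CPM (log2 0.20). In the heat shock list of 17, 1 gene was higher and 1 lower in NELF-B cKO and 4 were higher and 2 lower in TDP-43 cKO, with a median of 0.09 in both. Hspb1, a small heat shock protein, had 6.98 to 11.2 CPM in controls, 24 and 19.8 CPM in NELF-B cKO and 24, 27.1 and 19.5 CPM in TDP-43 cKO, and its level was 361 to 738 CPM in Sertoli barcodes. Hsp90ab1 and Hsp90aa1 had log2 differences of -0.22 and -0.26 in NELF-B cKO and 0.27 and -0.07 in TDP-43 cKO.

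None of the 43 meiotic genes was higher in NELF-B cKO and 7 were lower, against 5 higher and 7 lower in TDP-43 cKO, and Sycp1 and Tex15, the most abundant, had log2 differences between -0.17 and 0.08. Of 17 piRNA genes, 5 were lower in NELF-B cKO and 4 in TDP-43 cKO with none higher, and the medians were -0.13 and -0.11. Free RNA held 2380 to 2640 CPM of the piRNA list in controls and 2370 and 997 CPM in NELF-B cKO. TDP-43 cKO libraries had 873, 1990 and 1980 CPM of it. Spermatocyte markers were lower in the undifferentiated SG of every cKO mouse than in those of the controls. Their part in the meiotic and piRNA values was not tested. Fkbp6 and Mov10l1 had differences of 0.02 and -0.11 in NELF-B cKO and 0.12 and 0.03 in TDP-43 cKO. For 16 DNA methylation genes the medians were -0.03 and 0.07, with 1 gene higher in each knockout, and Dnmt1, the maintenance methyltransferase, had 114 to 165 CPM in controls and 134 to 164 CPM in the 5 cKO mice. Morc1 had 99.5 to 130 CPM in controls, 104 and 100 CPM in NELF-B cKO and 123, 132 and 130 CPM in TDP-43 cKO. Its difference between the knockouts (log2 -0.38) was not called in edgeR (adjusted p = 0.263).

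Glycolysis genes were mixed in TDP-43 cKO, with 6 of 18 higher and 4 lower. Gapdh had 581, 536, 621 and 583 CPM in controls, 508 and 682 CPM in NELF-B cKO and 769, 792 and 744 CPM in TDP-43 cKO mice (log2 0.43, SE 0.12, adjusted p = 0.0825 for TDP-43 cKO), and free RNA held 105 to 174 CPM of Gapdh in controls and 404 to 770 CPM in TDP-43 cKO. Ldha, lactate dehydrogenase A, had 90.5 to 142 CPM in controls and 30.3 to 41.3 CPM in TDP-43 cKO (log2 -1.60, SE 0.35, adjusted p = 0.067), and in free RNA 559 to 634 CPM and 98.3 to 179 CPM. Gpi1 had a log2 difference of 0.23 in TDP-43 cKO and -0.25 in NELF-B cKO. Oxidative phosphorylation genes, 75 in all, had medians of -0.03 and 0.08, with 5 higher and 5 lower in NELF-B cKO and 8 and 2 in TDP-43 cKO, and Cox4i1 and Cox7c had differences between -0.15 and 0.13.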

How the data were processed

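The deposited matrices hold raw UMI counts for all barcodes of each testis, made by the authors with Cell Ranger on an mm10 reference and not normalized. The submitters' processing notes name Cell Ranger 6.1.1 and 7.0.0, Seurat 4.2.0 and DESeq2 1.36, while the headers of all 9 matrices name Cell Ranger 4. Matrices held 119203347 to 159407373 UMIs per mouse, and 46 of the 2251 undifferentiated SG held under 10000 UMIs. Counts were summed per mouse over the chosen cells and tested with edgeR 4.0.16 in R 4.3.3 (filterByExpr, TMM, quasi-likelihood fit over all 9 mice), with Benjamini-Hochberg adjustment over 16513 genes after the 6 rule genes were taken out. A gene was called at an adjusted p under 0.05. DESeq2 1.42.0 was an alternative. Differences are log2 fold changes, and the script was tested on simulated data. Cell numbers were compared with exact permutation tests over mice. Each mouse is 1 library, so p-values measure the spread between mice.

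The members and the gene lists were chosen with earlier results of these data known. Genes named are the rule genes, Nelfb and Tardbp, called genes of each list or its 2 most abundant, and per comparison and direction the 6 called genes with the largest change among those with at least 20 CPM, no overlap between groups and no predicted-gene name, or the 3 with the smallest p. All other genes were named after their values were seen, and 1 gene that the rule names is not reported here. No doublets were removed. Gene positions are from GENCODE M21 (GRCm38).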

Additional observations from a re-analysis of the deposited data

Results flagged for a closer look

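In 6 genes the level in 1 control mouse lay far from the other 3, among 95 results looked at, where chance gives about 1 in 20. Cox7c had 1220 CPM in control 2 against 1020 to 1040 CPM, and Supt5 had 236 CPM in control 3 against 194 to 196 CPM. In control 1, Ier2 had 17.1 CPM against 14 to 14.2, Nanos2 had 7.19 CPM against 1.84 to 2.47, and Pold1 had 82.9 CPM against 60.6 to 63.3. Gm13026 was at 0 CPM in control 3 and at 1.09 to 1.11 CPM in the others.

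For 4 genes the effects of the 2 knockouts differed in a test of the difference itself. On the log2 scale, NELF-B cKO minus TDP-43 cKO was -3.37 for Nelfb, 1.36 for Eif4g3, 0.85 for Tardbp and -2.18 for Filip1 in edgeR.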

How the results depend on the processing

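Counts of called genes, as higher and lower, moved under nearly every alternative. The study's threshold was applied here to edgeR values, whereas the study used it with DESeq2 and shrunken fold changes, so these counts are not its criterion. For NELF-B cKO against control (11 and 2) they were 357 and 189 with DESeq2, 7 higher with free RNA subtracted, 3 and 1 with cells thinned to 10000 UMIs, 0 and 1 with at least 5 rule genes, 0 and 0 with fewer than 2 Sertoli markers, 0 and 0 without any Nelfb or Tardbp UMI in all mice, 164 and 25 without a UMI of the targeted gene in cKO mice, 90 and 8 without the filter on low counts, 221 and 10 with only the compared mice, and 0 and 0 at the study's threshold (adjusted p under 0.01 and a change of at least 2-fold). For TDP-43 cKO (0 and 0) they were 360 and 1235 with DESeq2, 5 lower with free RNA subtracted, 43 and 349 after thinning, 118 and 442 with 5 rule genes, 2 and 57 without a Nelfb or Tardbp UMI, 353 and 1237 without the targeted UMI, 147 and 420 without the filter, and 272 and 1220 with only the compared mice. For NELF-B cKO against TDP-43 cKO (2 and 2) they were 79 and 169 with DESeq2, 26 and 11 with free RNA subtracted, 10 lower after thinning, 0 and 1 with 5 rule genes, 1 and 7 with fewer than 2 Sertoli markers, 0 lower without a Nelfb or Tardbp UMI, 77 and 130 without the targeted UMI, 0 and 0 with only the compared mice, and 0 and 0 at the study's threshold. All 13 calls of NELF-B cKO were kept with DESeq2, its size factors in edgeR, no filter and only the compared mice. With free RNA subtracted 3 of the 13 were kept. The cause of the moves was not tested.

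Leaving out 1 mouse gave 0 to 344 higher and 0 to 47 lower for NELF-B cKO, 0 to 332 and 0 to 1133 for TDP-43 cKO, and 0 to 193 and 0 to 208 between the knockouts. The largest counts came without TDP-43 cKO 1, NELF-B cKO 1 and NELF-B cKO 2. Nelfb ranged from -4.78 to -3.00, Tardbp from -0.77 to -0.69, cells per 1000 barcodes from -3.07 to 55.1 (NELF-B cKO) and 109 to 116 (TDP-43 cKO), and cells per Sertoli barcode from -0.474 to -0.0293 and from 0.199 to 0.611. In edgeR, Nelfb passed no longer with fewer than 2 Sertoli markers (-3.02, adjusted p = 0.0956) and not at the cut-offs of the study (-3.41, adjusted p = 0.011). DESeq2, the test of the study, gave Nelfb a log2 difference of -3.37 with an adjusted p of 3.7e-32. Tardbp passed with DESeq2 (-0.72), free RNA subtracted (-0.91), thinning (-0.82), 5 rule genes (-0.72), no filter (-0.69) and only the compared mice (-0.75). Leaving out barcodes under 10000 UMIs and thinning the rest moved cells per 1000 barcodes in NELF-B cKO to -1.75 and cells per Sertoli barcode in TDP-43 cKO to -0.261, which was -0.696 without Tardbp UMIs in the cKO, where the difference per 1000 barcodes in TDP-43 cKO was 21.3 in place of 113.

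With the replicate number as a block, 0 genes were called in any comparison, and Nelfb was at -3.53 with an adjusted p of 0.303. The labels give replicate numbers and do not say that the mice are paired. Deviations from the group mean correlated between -0.551 and 0.147 in same-numbered mice and between -0.589 and 0.589 in the others. The 2 NELF-B cKO mice mirror each other around their mean, so these values cannot decide whether mice are paired.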

Other observations

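The nuclear long noncoding RNA Malat1 had 1780 to 1990 CPM in the undifferentiated SG of controls and 4560 and 4100 CPM in NELF-B cKO mice, a log2 difference of 1.15 that was not called in edgeR (adjusted p = 0.101). TDP-43 cKO 1 had 3210 CPM, and TDP-43 cKO 2 and 3 had 1980 and 1960 CPM. Free RNA held 1040 to 2250 CPM in controls and 3160 to 7940 CPM in NELF-B cKO, and 4650 to 8110 CPM in TDP-43 cKO. DESeq2 called Malat1 in NELF-B cKO (adjusted p = 3.1e-07).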
